A study of Mus musculus with 3 samples.

Results

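The cells described here were T cells captured with dissociated mouse nucleus accumbens, picked from single-cell counts by transcripts of the CD3 complex, the signalling chains that carry the T cell receptor to the surface. A cell was taken as a member when it held at least 2 unique molecular identifiers (UMIs, each standing for 1 captured transcript) of Cd3d, Cd3e and Cd3g together, or 1 such UMI with at least 2 of Nkg7 and Ms4a4b, and when it held at most 1 UMI of the neuronal genes Snap25 and Syt1 together and at most 1 of the myeloid gene Lyz2. Of 11625 deposited cells, 10291 had at least 300 detected genes and at most 20% mitochondrial UMIs, and 90 of these were members: 27 in library 1, 54 in library 2 and 9 in library 3.

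The data came from 3 single-cell libraries of 1 group, and no untreated or unlabelled group was analysed here, so no condition was compared. The mice were of the Thy1::ChR2 strain, which carries the light-gated channel channelrhodopsin-2 under the neuronal Thy1 promoter. FLiCRE, a reporter that needs light and calcium together to release a transcription factor, was used to mark cells of the nucleus accumbens while the channel was stimulated with light. The labels give the tissue as a coronal brain slice dissection and name neither an injection, the age or sex of the animals, nor how many animals were pooled, so the spread between libraries may be technical. Libraries are numbered by the suffix of the cell barcode, which the files do not tie to the numbered samples.

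T cells patrol the body for foreign or altered peptides. Those with the coreceptor CD8 read peptides on MHC class I and can kill with granzymes and perforin, while those with CD4 read peptides on MHC class II and steer other immune cells, a regulatory subset with Foxp3 among them restraining responses. The healthy brain parenchyma holds few T cells, and those that stay in a tissue after an infection or injury are known as tissue-resident memory cells.

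Members made up 1.15% of kept cells in library 1 (27 of 2350, exact 95% binomial interval 0.758% to 1.67%), 0.888% in library 2 (54 of 6079, 0.668% to 1.16%) and 0.483% in library 3 (9 of 1862, 0.221% to 0.916%). The mean was 0.840% ± 0.335 (SD, n = 3 libraries). The highest share was in library 1, and the intervals of neighbouring libraries overlapped, while those of libraries 1 and 3 shared only the stretch from 0.758% to 0.916%. Against non-neuronal cells alone, which leaves aside how many neurons each library held, the order changed: 1.65%, 2.66% and 0.991%, with library 2 highest. These intervals cover counting error only, and the share of neurons, cell survival and cell calling were not tested for their part in the order.

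**Figure D1:**
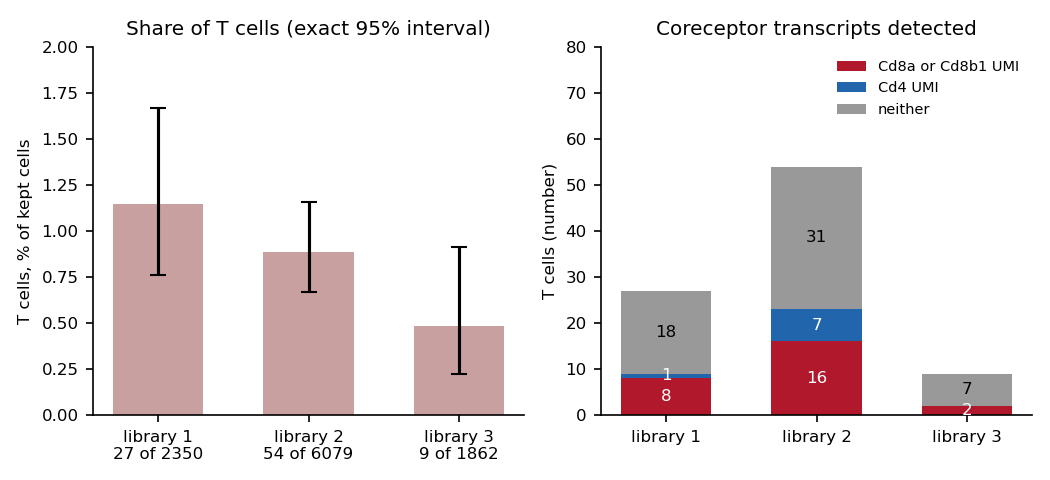
Left, members as a percentage of kept cells in each library, with exact 95% binomial intervals; the share runs from 0.483% in library 3 to 1.15% in library 1. Right, the number of members per library in which a UMI of Cd8a or Cd8b1, of Cd4, or of neither was detected; members with neither are the largest class in every library.

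The members were small libraries in themselves, with a median of 1129 UMIs (lowest 477, highest 3998) and a median of 601.5 genes. Summed, they held 34927 UMIs in library 1, 66563 in library 2 and 13756 in library 3, so that 3 UMIs, the limit that a count of 0 allows, stood for 85.9, 45.1 and 218 CPM (counts scaled to the same total in every library and class). The deposited libraries differed in depth as a whole, from 3066390 to 16499307 UMIs. Between libraries 7 to 22 cell barcodes were shared, none of them a member's. Doublets were not removed, and taking out the cells with the highest doublet scores removed 2 of the 90 members.

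Of the members, 75 passed on CD3 transcripts alone (20 with 2 UMIs, 55 with 3 or more) and 15 on 1 CD3 UMI with Nkg7 and Ms4a4b, both of which are lymphocyte genes. The CD3 genes chose the members and are given as a description: Cd3d stood at 1432, 1112 and 1599 CPM in libraries 1, 2 and 3, Cd3g at 888, 1232 and 727 CPM. Another 17 cells had enough CD3 but too much Snap25 and Syt1 (13 cells) or Lyz2 (5 cells). Just outside the limit were 39 cells with 1 CD3 UMI and fewer than 2 of Nkg7 and Ms4a4b, of which 4 held the chemokine gene Ccl5. A further 20 cells had no CD3 UMI but at least 2 of Nkg7 and Ms4a4b, and 11 of these held Ccl5 and 4 the natural killer gene Klrb1c.

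The name T cell was checked on genes that the selection did not read. At least 1 UMI of Lck, Cd2, Cd247, Skap1, Lat, Cd6 or Cd28, all of the receptor's signalling and costimulation machinery, was found in 73 of 90 members (81.1%, exact 95% interval 71.5% to 88.6%). The same share was 1.76% of 4479 other non-neuronal cells, 1.24% of 887 myeloid cells and 2.32% of 5722 neurons, at median depths of 1205, 1107 and 2378 UMIs. By library it was 19 of 27, 45 of 54 and 9 of 9. Among the 20 cells outside the limit with no CD3 UMI but at least 2 of Nkg7 and Ms4a4b, the share was 70%. It was 66.7% in the 15 members with 1 CD3 UMI. These genes thus set members apart from the 3 broad classes, but not from those 20 cells. Of 18 genes of the receptor complex and its proximal signalling, all had UMIs in members, and their summed level was 3092, 5198 and 5452 CPM against 348, 417 and 215 CPM in other non-neuronal cells. Receptor constant and variable genes were not analysed here.

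Lck, the kinase that starts receptor signalling, had 258, 496 and 727 CPM in members and 5.71, 5.45 and 4.01 CPM in other non-neuronal cells. Cd2, an adhesion receptor, had 172, 571 and 145 CPM against 4.15, 2.73 and 1.46. For both genes every library's members lay above every library's other cells.

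Markers of other cells were unevenly spread over the libraries. Summed oligodendrocyte markers (Mbp, Mobp, Mog, Mag, Cnp) stood at 5726, 1923 and 800 CPM in members, against 7698, 7461 and 12684 CPM in other non-neuronal cells. Summed astrocyte markers were 4724, 2299 and 363 CPM, neuronal markers 200, 1367 and 291 CPM, and microglia and macrophage markers 429, 541 and 363 CPM. In library 1 a single member held 97 of the 200 oligodendrocyte UMIs, and 1 held 93 of the 165 astrocyte UMIs. The microglia and macrophage sums compare with 4628, 4553 and 2755 CPM in other non-neuronal cells, with P2ry12 and Csf1r at 0 UMIs. B cell genes had 1 UMI in all members (Cd79b) and the 4 neutrophil genes none. The part of this foreign RNA in the levels below was not tested.

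CD8 transcripts were found in more members than Cd4. Cd8a, the alpha chain of the CD8 coreceptor, had 172, 180 and 145 CPM in members (20 UMIs in 17 cells), and Cd8b1, the beta chain, had 229, 451 and 436 CPM (44 UMIs in 21 cells). In other non-neuronal cells Cd8a stood at 1.56, 0.606 and 0 CPM and Cd8b1 at 1.56, 2.42 and 0 CPM, so that members were far higher in each library. Cd4 gave 9 UMIs in 8 members, at 57.3, 105 and 0 CPM against 9.86, 3.94 and 1.46 CPM, and the count of 0 in library 3 allows up to 218 CPM.

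A UMI of Cd8a or Cd8b1 was present in 8 of 27, 16 of 54 and 2 of 9 members, or 29.6%, 29.6% and 22.2% (mean 27.2% ± 4.28, SD, n = 3). The share was 0.268% in other non-neuronal cells and 0.280% in neurons, which should lack the gene. A Cd4 UMI was present in 1, 7 and 0 members, or 3.70%, 13.0% and 0% (mean 5.56% ± 6.68), where a count of 0 of 9 cells allows a share of cells with a UMI of up to 33.3% and does not limit how many cells expressed the gene. Without library 2 the mean Cd4 share was 1.85%. Over all libraries 8.89% of members (median 1129 UMIs) had a Cd4 UMI, beside 0.737% of other non-neuronal cells and 7.48% of the deeper neurons (median 2378 UMIs). With every cell thinned to 500 UMIs, which left out 1 member, the pooled Cd4 shares were 2.25% in members and 1.84% in neurons, so detection of Cd4 alone did not set members apart from neurons. The thinned share for CD8 was 16.9% in members and 0.0530% in neurons.

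No member held both coreceptors, and 56 of 90 held neither (18, 31 and 7 by library). At this depth an absent coreceptor UMI does not show an absent coreceptor. Too few members carried Cd4 for a fit of CD8 against Cd4 members over libraries, so the classes are described by their pooled counts, with no test.

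Ccl5 was unevenly spread over these classes. This chemokine, stored by effector and memory CD8 T cells and natural killer cells, was present in 20 of 26 members with CD8 (422 UMIs), in 31 of 56 with neither (393 UMIs) and in 0 of 8 with Cd4 (exact 95% upper bound 36.9%). Ly6c2, a memory CD8 surface antigen, followed the same order of presence with 8, 15 and 0 members. So did Klrd1, the CD94 chain of lectin-like receptors, with 9, 13 and 0. The receptor gene Klrk1, the chemokine gene Xcl1 and the adaptor gene Fcer1g did not. They were found in a larger share of members with neither coreceptor than of members with CD8.

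Tnfrsf4, Icos and Cd28, costimulatory receptor genes named here after their values were seen, were found in a larger share of members with Cd4 than with CD8. Tnfrsf4, which encodes OX40, was present in 5 of 8 members with Cd4, 12 of 56 with neither and 0 of 26 with CD8. Icos was present in 5, 7 and 0 members of these classes, and Cd28 in 3, 10 and 0. Cd27, a costimulatory receptor too, did not share this order, with 0, 7 and 3. Rgs1, a brake on chemokine receptor signalling, was found in 3, 7 and 3 members, with 17 of its 29 UMIs in the Cd4 class, 13 of them in 1 cell. Of the 8 members with Cd4, 7 were in library 2. Within that library Tnfrsf4 was present in 5 of 7 members with Cd4, 9 of 31 with neither and 0 of 16 with CD8, and Ccl5 in 0, 15 and 12 members of these classes, so both orders were also seen inside 1 library.

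**Figure D2:**
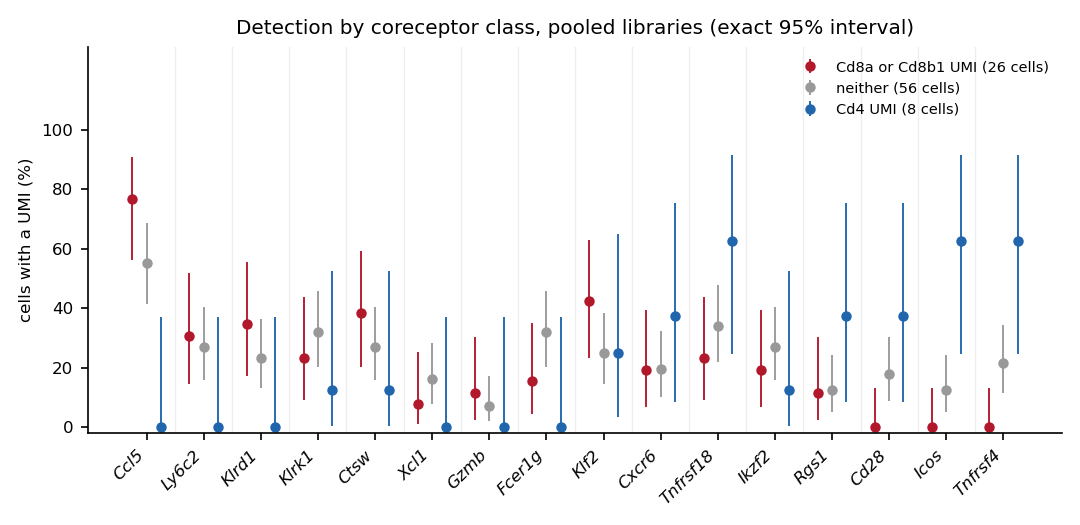
Share of members with at least 1 UMI of each gene, for members with a Cd8a or Cd8b1 UMI (26 cells), with neither coreceptor (56) and with a Cd4 UMI (8), pooled over libraries, with exact 95% binomial intervals for counting error. Ccl5 falls from 76.9% to 0% from left to right, and Tnfrsf4 and Icos rise from 0% to 62.5%.

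Ccl5 and Tnfrsf4 were seldom found in the same cell. Of 90 members, 50 had Ccl5 alone (18, 27 and 5 by library), 16 had Tnfrsf4 alone (2, 14 and 0), 1 had both and 23 had neither. This split was chosen after the values were seen and is a description. Median depth was 1145.5 UMIs with Ccl5 alone and 1462 with Tnfrsf4 alone, so the cells with Tnfrsf4 alone were not shallower. Members with Ccl5 alone, 50 of 90, included all 5 with Gzma, 6 of 7 with Gzmb, 22 of 25 with Klrk1 and 20 of 22 with Fcer1g. Those with Tnfrsf4 alone, 16 of 90, included 8 of 12 with Icos and both with Foxp3. Ctsw, another cytotoxic gene, was present in 15 members with Ccl5 alone, 2 with Tnfrsf4 alone and 9 with neither. The counts for Xcl1 in these classes were 8, 0 and 3.

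**Figure D3:**
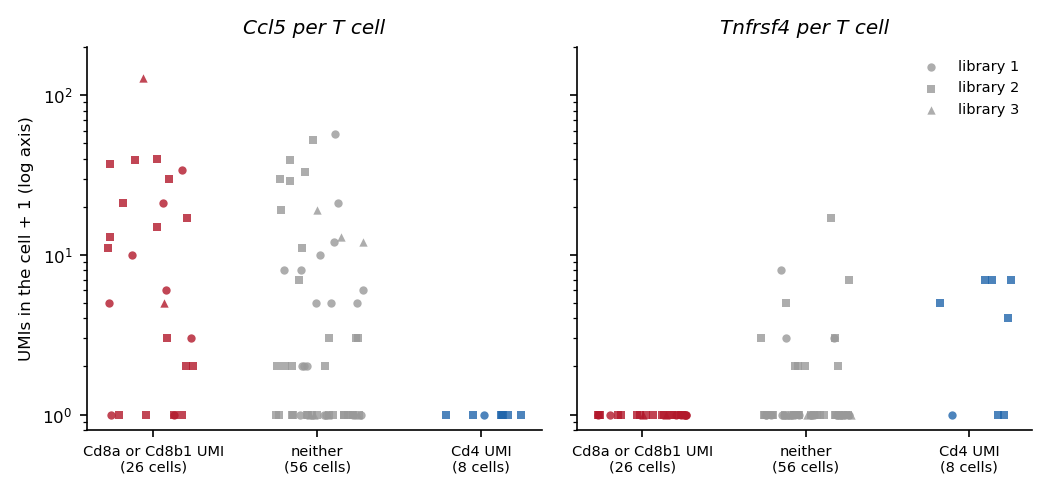
UMIs of Ccl5 (left) and Tnfrsf4 (right) in each member, plus 1 on a log axis, by coreceptor class, with marker shape for library and horizontal scatter for legibility. Ccl5 reaches 127 UMIs in 1 CD8 cell of library 3 and is 0 in all 8 Cd4 cells, while Tnfrsf4 is 0 in all 26 CD8 cells.

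The cytotoxic gene with most UMIs was Ccl5, with 203, 440 and 172 UMIs in libraries 1, 2 and 3, or 5812, 6610 and 12504 CPM in members. Other non-neuronal cells had 387, 205 and 109 CPM and myeloid cells 576, 356 and 695 CPM. Within libraries the members' level was 15.0, 32.3 and 115 times that of other non-neuronal cells and between 10.1 and 18.6 times that of myeloid cells. Few cells carried much of it: 5 cells held 38.2% of the UMIs, and 1 cell held 127 of the 172 in library 3. Thinned to 500 UMIs a cell, Ccl5 remained in 48.3% of members, 5.23% of other non-neuronal cells, 14.9% of myeloid cells and 1.62% of neurons.

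Ctsw, a cathepsin of cytotoxic lymphocytes, had 258, 240 and 654 CPM in members, 2.08, 2.73 and 0.729 CPM in other non-neuronal cells and no UMI in myeloid cells. Klrk1, the activating receptor NKG2D, had 172, 361 and 654 CPM against 7.78, 7.57 and 2.92. Xcl1, a chemokine that draws cross-presenting dendritic cells, had 57.3, 255 and 582 CPM against 2.08, 1.51 and 0.365. In all 3 genes the lowest library of members lay above the highest of the other cells, with library 3 highest. That library had 9 members, and its levels leaned on single cells. There 1 member held 5 UMIs of Klrk1 and 4 of Xcl1, along with the natural killer gene Ncr1. Another held 4 UMIs of Ctsw and 3 of Xcl1.

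Granzyme transcripts were found in few members. Gzmb gave 8, 16 and 1 UMIs in 7 cells (229, 240 and 72.7 CPM) and only 3 UMIs in 4479 other non-neuronal cells. Gzma gave 12, 1 and 5 UMIs in 5 cells, 3 of which also held Gzmb. The pore-forming gene Prf1 had 3 UMIs, Gzmk 1, Fasl 3 and Ifng, the T cell interferon, 4. Of the 19 cytotoxic genes 9 reached 10 UMIs in members, and 68 of 90 members (75.6%) held at least 1 UMI of the list. The same share was 14.2% in other non-neuronal cells and 39.8% in myeloid cells. Ccl5, which is on the list, was by itself found in 51 members.

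Gzmb and Xcl1 were among the most raised genes of the members, and the 250 bases before their RefSeq starts (GRCm38.p6) are shown because factors of T cells are known to bind such sequences. Capitals mark matches on either strand to TGTGGT (a core of RUNX sites), GGAAGT (ETS) and TCACAC (T-box), and no matches overlapped. The Gzmb window is chr14:56262335-56262584 on the minus strand and the Xcl1 window chr1:164935523-164935772 on the minus strand.
Gzmb: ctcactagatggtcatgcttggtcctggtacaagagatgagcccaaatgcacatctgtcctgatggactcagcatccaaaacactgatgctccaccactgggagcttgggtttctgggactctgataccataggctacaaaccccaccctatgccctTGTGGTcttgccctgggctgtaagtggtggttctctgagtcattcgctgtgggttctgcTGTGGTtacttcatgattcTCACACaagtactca
Xcl1: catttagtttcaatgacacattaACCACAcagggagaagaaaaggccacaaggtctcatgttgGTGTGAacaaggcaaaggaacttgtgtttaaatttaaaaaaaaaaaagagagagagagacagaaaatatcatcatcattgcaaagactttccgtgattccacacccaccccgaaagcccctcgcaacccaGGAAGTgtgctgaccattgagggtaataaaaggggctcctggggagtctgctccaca
The Gzmb window held 2 RUNX matches, 0 ETS and 1 T-box, and the Xcl1 window 1 of each. Of 32851 promoter windows of this length, 14.0% held the RUNX letters, 19.7% the ETS letters and 12.3% the T-box letters. The window of Cd8a held none of the 3. Ccl5 and Cd8b1 had no entry in the table.

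Of 18 genes of effector and tissue-resident memory cells 12 reached 10 UMIs, and their sum was 2749, 3816 and 8360 CPM in members against 1388, 1404 and 1151 CPM in other non-neuronal cells. Cxcr6, a chemokine receptor of resident memory cells, had 28.6, 391 and 654 CPM against 1.04, 2.12 and 2.55, and rested on 1 UMI in library 1. Ly6c2 had 200, 496 and 1672 CPM against 5.19, 16.4 and 6.20, and Il2rb, the receptor chain for interleukins 2 and 15, 57.3, 165 and 363 CPM against 2.59, 1.21 and 2.19. Members were above the other cells in every library for each of these genes, and highest in library 3. That library had 9 members, and the level there leaned on single cells. In it 1 member held 5 UMIs of Cxcr6 and another 13 of Ly6c2.

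Some names often used for resident memory were not detected. Itgae, Zfp683 and Prdm1 had 0 UMIs in 115246, which allows up to 26.0 CPM, and Itga1 had 1. Cd69, an early activation and retention gene, had 14 UMIs in 12 cells (57.3, 165 and 72.7 CPM against 1.56, 4.85 and 3.65). Id2, a transcriptional regulator that many cells express, had 429, 691 and 1817 CPM in members and 358, 672 and 413 CPM in other non-neuronal cells, and the classes overlapped.

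Of 8 naive and central memory genes 4 reached 10 UMIs. Klf2, a factor that keeps circulating T cells on the move, had 115, 631 and 291 CPM in members and 126, 244 and 277 CPM in other non-neuronal cells, where endothelial cells express it too. Its levels overlapped between the classes. Tcf7, a factor of naive and long-lived memory cells, had 57.3, 150 and 218 CPM against 9.34, 10.9 and 9.12, and Il7r, the survival receptor, 0, 165 and 145 CPM against 4.67, 7.27 and 1.46. The lymph node homing receptor gene Ccr7 had 1 UMI, and Bach2, a factor of resting lymphocytes, 0.

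Regulatory list genes with at least 10 UMIs were Tnfrsf18, Ikzf2, Tnfrsf4 and Icos, of which the receptors are shared with activated T cells and Ikzf2 encodes the transcription factor Helios. Tnfrsf18, which encodes GITR, had 115, 511 and 436 CPM in members (44 UMIs in 30 cells) against 5.71, 5.76 and 2.92 CPM in other non-neuronal cells. Ikzf2 had 143, 285 and 727 CPM against 17.1, 29.7 and 25.2, and the level in library 3 leaned on a single member with 7 UMIs. Tnfrsf4 had 315, 886 and 0 CPM against 11.4, 5.45 and 2.19. Libraries 1 and 2 lay above the other cells, while the count of 0 in library 3 allows up to 218 CPM and does not place its members above or below them. Icos had 57.3, 315 and 72.7 CPM against 1.04, 3.03 and 0.

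Foxp3 itself, the factor that defines regulatory T cells, was found in 2 members of library 2 with 1 UMI each, both with Tnfrsf4 and neither with Cd4 or Il2ra. Ctla4 and Il2ra had 3 UMIs each, and Tigit, Il10 and Il1rl1 had 0. Among helper genes, 1 Cd4 cell of library 2 held all 8 UMIs of Il13 and both of Il4, the cytokines of type 2 helper cells, without a UMI of Gata3.

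**Figure D4:**
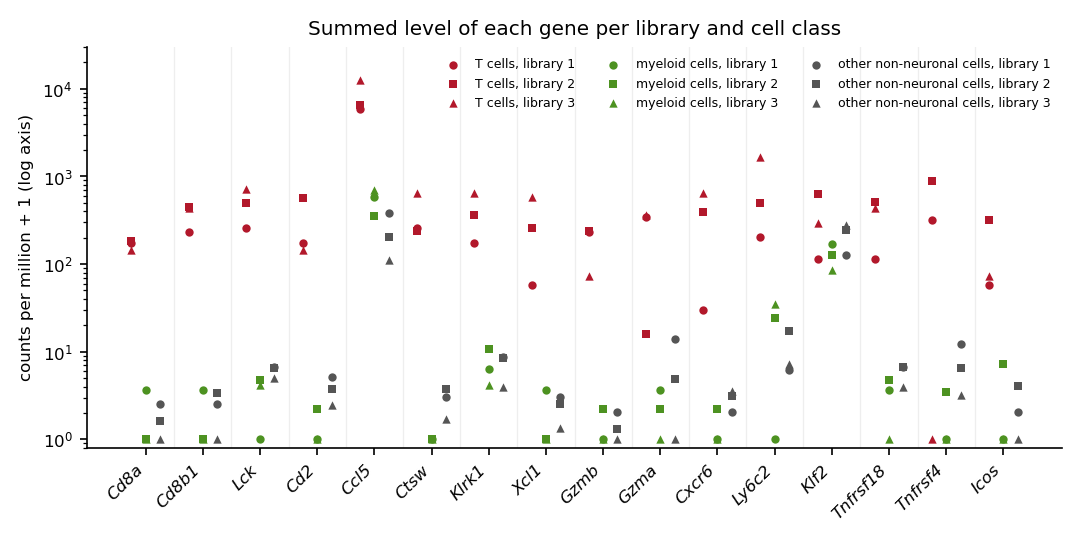
Summed CPM plus 1 (log axis) of 16 genes in members, myeloid cells and other non-neuronal cells, 1 marker per library. Members lie above the other classes in every library for Cd8a, Cd8b1, Lck and Ccl5, overlap with them for Klf2, and are at 0 for Tnfrsf4 in library 3.

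Some members also carried natural killer genes. At least 1 of Ncr1, Klrb1c, Klre1, Klra8 and Klra4 was found in 11 members, and 6 of these held at least 2 of them. All 11 also held Fcer1g or Tyrobp, adaptor genes shared by natural killer and myeloid cells, and 1 of the 11 held CD8. Of all 90 members, 24 held Fcer1g or Tyrobp. Fcer1g was at 172, 421 and 1090 CPM in members, overlapping with 780, 583 and 280 CPM in other non-neuronal cells, and Tyrobp at 0, 180 and 654 CPM. Tyrobp stood at 0.375 and 2.69 times the level of other non-neuronal cells in libraries 2 and 3. A single member of library 3 held 8 UMIs of Tyrobp and 6 of Fcer1g. Klra8 and Klra4 had no UMI in members. Klra7, of the same gene family and among the most raised genes below, had 15 UMIs in members and was not part of this count. Natural killer cells can hold CD3 transcripts, and whether the 11 members were such cells was not tested.

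The whole-transcriptome contrast was fitted on sums per library with library as a block, and the contrast is the one the selection used, so it is read as a description. With at least 10 cells required per class, library 3 dropped out, and edgeR's quasi-likelihood test on libraries 1 and 2 called 0 of 9658 genes (0.0%) against other non-neuronal cells, with 1362 at an unadjusted p under 0.05, and 0 of 3296 (0.0%) against myeloid cells, with 633. DESeq2 on the same sums called 340 (3.52%) and 119 genes (3.61%), as shares of the same 9658 and 3296 genes. It gave no adjusted p for 5805 and 831 of these, so the shares of the genes it adjusted over were larger. A fit with all 3 libraries, chosen after the data were seen, called 248 of 9127 genes higher in members (2.72%) and 579 lower (6.34%). Leaving out any 1 of the libraries from it brought the count to 0, so those calls rest on having all of them.

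The 10 genes most raised over other non-neuronal cells in the 3-library fit, by the size of log2 fold change, were Gzmb (8.33 ± 0.73, SE), Gm19585, Cd6, Cd8b1 (7.65 ± 0.61), Klra7, Cd8a, Skap1, Xcl1, Ctsw and Cxcr6 (6.93 ± 0.62). The 10 most lowered had no UMI in any member. Ly6c1, an endothelial surface antigen, was at least 18.6-fold lower, against a floor of 3 UMIs over all members. The others were Vtn (at least 9.01-fold), Myl9, Ccl12, Slco1a4, Cald1, Acsbg1, Abca1, Gnao1 and Fn1 (at least 5.30-fold). They include genes of vessels, stroma, astrocytes and macrophages, though not every gene belongs to these.

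Beside these shares, the lists behaved as follows in the 3-library fit. Of 14 tested genes of receptor signalling 13 were called higher and 0 lower (median log2 fold change 4.93, all genes -0.77). The cytotoxic list had 9 of 11 higher and 1, Ccl4, lower (median 5.44). Effector and resident memory genes had 8 of 13 higher and 0 lower (2.47), regulatory genes 4 of 5 higher (5.78), and naive and central memory genes 2 of 5 higher, Tcf7 and Satb1, and 1, S1pr1, lower (1.22). Genes entered the fit only if summed counts sufficed, which members alone could provide, so these counts do not speak for whole lists.

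Against myeloid cells the same fit called 121 of 2923 genes higher (4.14%) and 204 lower (6.98%). Ctsw, Skap1 and Il2rb had no myeloid UMI and were at least 147-fold, 95.4-fold and 78.0-fold higher in members, against a floor of 3 UMIs over all myeloid cells. Ltb, the lymphotoxin beta gene of lymphocytes, had 94 UMIs in members and 6 in myeloid cells, and Gimap4, a lymphocyte survival GTPase, 76 and 6. The members in turn had no UMI of the chemokine genes Ccl12 (at least 39.7-fold lower) and Ccl8, the Fc receptor genes Fcgr3 (at least 22.6-fold lower) and Fcgr2b, or the microglial genes Fcrls and P2ry12. Without library 1 this fit called 3 genes, all higher, and without library 2 or 3 none.

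MHC class I genes were abundant in members. Summed over 11 genes they reached 6442, 10847 and 14248 CPM, against 3910, 4456 and 4804 CPM in other non-neuronal cells, or 1.65, 2.43 and 2.97 times as much. Myeloid cells, at 10301, 7552 and 8263 CPM, overlapped with them. H2-K1, a classical class I heavy chain, had 945, 1773 and 3199 CPM against 480, 527 and 521, and H2-Q7, a nonclassical heavy chain, 286, 451 and 727 CPM against 55.5, 50.9 and 49.6; these 2 of 11 were called higher in the 3-library fit, with near-identical class I genes able to share reads.

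Interferon-stimulated genes showed no common direction. Their sum over 23 genes was 3779, 3185 and 4725 CPM in members and 2094, 4202 and 3873 CPM in other non-neuronal cells, which overlapped. In library 3 a single cell held 41 of the 65 UMIs, and the sum without it was 1866 CPM. Of 22 tested, Slfn1 and Slfn2, the Schlafen genes known from lymphocytes, were called higher, and Oasl2, Igtp, Iigp1, Ifit3 and Ifit1 lower, with a median log2 fold change of -1.10 beside -0.77 for all genes. Slfn2 had 229, 180 and 291 CPM in members against 35.8, 35.7 and 22.6. Ifi27l2a, at 2233, 961 and 1672 CPM against 363, 571 and 939, was not called.

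Of 11 tested trafficking receptors 6 were called higher in members than in other non-neuronal cells. They were Cxcr6, the integrin genes Itga4, Itgal, Itgb2 and Itgb7, and Selplg, the selectin ligand. S1pr1, which guides T cells out of tissue, and Cx3cr1 were called lower, S1pr1 at 57.3, 90.1 and 0 CPM against 274, 173 and 219. Against myeloid cells 3 of 10 tested receptors were called higher, Itga4, Itgal and Itgb7, and 1 lower, Cx3cr1. S1pr1 was not called there and stood at 0.999 times the myeloid level in library 2. Selplg stood at 0.801, 1.16 and 0.683 times the myeloid level in libraries 1, 2 and 3. Of 15 tested ligands of such receptors 1, Ccl5, was higher than in other non-neuronal cells. Lower were 8: Vcam1, Cxcl10, Cxcl12, Cxcl16, Ccl2, Ccl4, Ccl8 and Ccl12. Cxcl16, the ligand of CXCR6, had 0 UMIs in members.

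**Figure D5:**
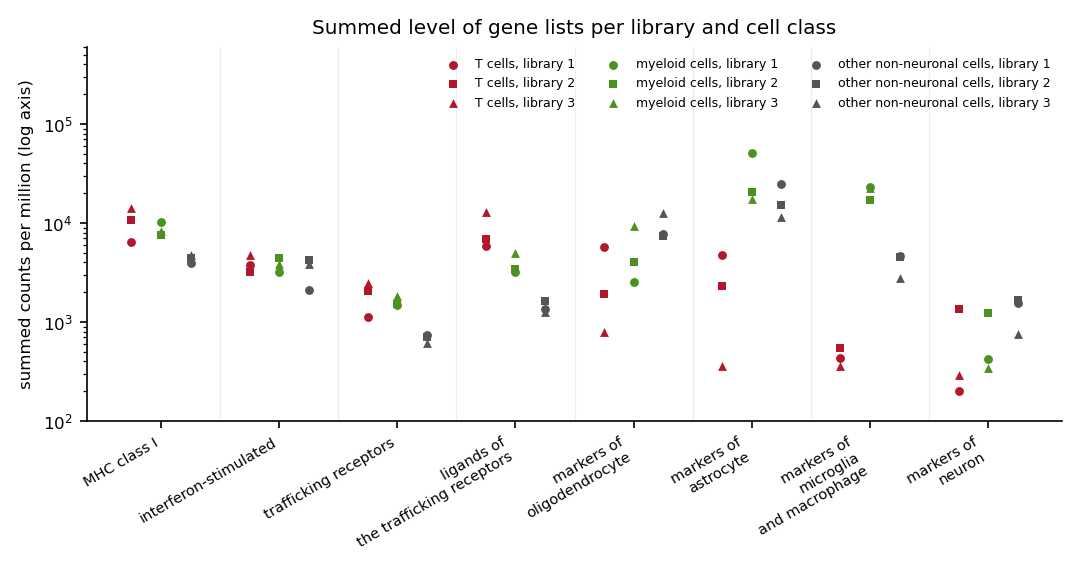
Summed CPM (log axis) of 4 gene lists and of the markers of 4 other cell types in members, myeloid cells and other non-neuronal cells, 1 marker per library. MHC class I sums in members, 6442 to 14248 CPM, lie above those of other non-neuronal cells and overlap with myeloid cells; myeloid cells were selected in part by markers of the microglia and macrophage list.

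Of the 11 proliferation genes, the broadly expressed Stmn1 and Hmgb2 alone reached 10 UMIs. Mki67 had 1 UMI, Top2a 5, Birc5 and Ube2c 3 each, Cdk1 and Ccnb2 2 each, Ccna2 and Tyms 1 each and Rrm2 0, which at this depth sets no limit on how many members were dividing. The list summed to 1489, 931 and 509 CPM in members and 840, 1154 and 1418 CPM in other non-neuronal cells, with library 1 above and libraries 2 and 3 below the other cells of their own library. Genes of activation and dissociation stress summed to 1059, 2764 and 5816 CPM in members and 1334, 2109 and 2201 CPM in other non-neuronal cells. The level of library 3 rested on 1 cell, which held 70 of its 80 UMIs, among them all 31 of Hspa1a, and without that cell the sum there was 1025 CPM.

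The FLiCRE construct features were found in members with a mean share near that of other non-neuronal cells. The red fluorescent reporter mCherry had 0, 8 and 1 UMIs, the protease feature TEV 4 UMIs and the transcription factor feature tTA 2 in all. Any of the 3 was found in 0 of 27, 12 of 54 and 1 of 9 members (mean 11.1% ± 11.1, SD, n = 3; 5.56% without library 2, 16.7% without library 1). Other non-neuronal cells had 11.5% ± 5.69 and neurons 47.3% ± 13.7. Thinned to 500 UMIs the means were 9.10% in members, 4.24% in other non-neuronal cells and 19.6% in neurons, and the spread between libraries of the members exceeded the gap to other non-neuronal cells. Thinned and pooled, mCherry was in 7 of 89 members (7.87%, 3.22% to 15.5%), 6 of them in library 2. It was in 1.68% of other non-neuronal cells and 4.03% of neurons. TEV and tTA were each in 1 of 89 members (1.12%, 0.0284% to 6.10%). Other non-neuronal cells had 2.15% and 1.54%, which that interval spans, so no direction is read from them.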

How the data were processed

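The authors deposited 1 matrix of raw UMI counts per gene and cell for all 3 libraries, made with Cell Ranger 3.0 on build mm10 per the submitters' processing notes, with 3 added construct features; the counts are not normalized. Cells below 300 genes or above 20% mitochondrial UMIs were dropped. Members, lists and thresholds were chosen with earlier results of these data known. Other non-neuronal cells held at most 1 UMI of Snap25, Syt1 and Snhg11 together; myeloid cells were those with at least 3 UMIs of C1qa, C1qb, C1qc, Csf1r and Lyz2. Counts were summed per library and class, CPM scales each sum by the UMIs of its library and class, and intervals are exact (Clopper-Pearson) and cover counting error only. Sums were fitted with edgeR 4.0.16 in R 4.3.3 (TMM, filterByExpr, robust quasi-likelihood, library as a block, since both sums come from 1 library), with the genes used for selection left out and Benjamini-Hochberg adjustment over all genes tested, threshold 0.05. A class needed 10 cells in a library. The fit was checked on simulated data. DESeq2 1.42.0, no filter, no block, edgeR's default prior, a stricter selection and thinning to 500 UMIs were alternatives; a fit with at least 5 cells per class was chosen after seeing the data. Some listed genes are not reported here. Named genes were those of the coreceptor, cytotoxic, memory and regulatory lists with at least 10 UMIs in members, up to 10 raised and 10 lowered genes of largest fold change, and up to 4 examples of other lists; genes below 10 UMIs, Cd4 classes and the Ccl5 and Tnfrsf4 split were named after their values were seen. The named leading genes come from the 3-library fit, as the planned fit called none. Promoter windows are from RefSeq. Scrublet in scanpy 1.11.5 scored doublets. Columns of other samples: 0.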

Additional observations from a re-analysis of the deposited data

How the results depend on the processing

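Counts of called genes depended strongly on the fit. Against other non-neuronal cells edgeR's quasi-likelihood test called 0 genes on libraries 1 and 2, DESeq2 340 (209 higher), the fit without a low-count filter 44 (30 higher), edgeR's default prior 684 (275 higher) and the fit with all 3 libraries 827 (248 higher). Against myeloid cells the count was 0, and 119 with DESeq2 (52 higher), 422 with the default prior (132 higher), 325 with all 3 libraries (121 higher) and 3 with libraries 2 and 3 alone. Without the replicate block that pairs the sums of 1 library, 57 and 201 genes were called. With 1 library left out, the 3-library fits called 0 and 0 to 3 genes. The planned fit without library 1 or 2 could not be made, with 1 library left, nor could that of CD8 over Cd4 members under any setting, since no library held 10 cells of both. Of the 340 genes DESeq2 called, 273 were called in the same direction by the 3-library fit. Over 43 results of named genes and 373 alternatives, 162 values passed the threshold that the 2-library fit missed, 210 kept direction and call, and 1 changed sign. That 1 was H2-K1 over myeloid cells, which turned to -0.25 (log2) without the filter. The alternative without library 3 was the 2-library fit itself, so its values, counted among the 210, could not differ. As the 2-library fit called no gene, no value could lose its call, and the tally does not measure stability. The share of members was 0.686% to 1.02% without 1 library. The CD8 share was 31.6% with the stricter selection, 18.2% thinned to 500 UMIs and 25.9% to 29.6% without 1 library; the cause was not tested.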
